A study of Homo sapiens with 6 samples.

Results

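The HOX set examined here comprised 45 gene names of the 25211 in the transcript models that the series deposited, 39 protein-coding HOX genes and 6 noncoding names. Members were all models on chromosomes 2, 7, 12 and 17 whose gene name is a HOXA, HOXB, HOXC or HOXD number, with or without an antisense suffix, or is HOTAIR, HOTTIP or HOTAIRM1. The 45 names had 58 of the 55083 transcript models and 42 of the 26008 loci. Of the 58 models, 47 carried a coding gene's name and 11 a noncoding one.

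The series comprises 6 RNA-seq libraries of the human beta cell line EndoC-βH1, derived from pancreas, which had received a short hairpin RNA (shRNA) construct against the insulin (INS) promoter by lentivirus. In 3 libraries the hairpin was induced by 7 days of doxycycline at 1 mg/mL, and in the 3 negative control libraries doxycycline was left out, so that doxycycline itself differs between the groups. For each library, 10 ng of total RNA was copied into full-length cDNA. The labels name 1 cell line and no separate culture, and they name no step that marks the strand of an RNA. The merged assembly gives exon positions and no abundance, so the levels of HOX genes and of beta cell markers, and how the 2 groups compare, were not analysed here. A model that equals a RefSeq transcript (a reference model below) is no sign that a gene was expressed, and nothing that follows has a replicate.

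HOX genes encode transcription factors that assign position along the head-to-tail axis of the embryo. In vertebrates they lie in clusters that arose by duplication, and genes with the same number in different clusters, called paralogues, descend from 1 ancestral gene. Genes near the low-numbered end are generally active earlier and nearer the head than those near the high-numbered end. Each protein binds DNA through a homeodomain, encoded by the homeobox, and many also hold a short hexapeptide through which they contact PBX cofactors. Long noncoding RNAs start within the clusters too, among them HOTAIR, studied as a partner of Polycomb repression, HOTTIP, studied as an activator of the high-numbered HOXA genes, and HOTAIRM1, described in myeloid cells.

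The 4 clusters kept strict numerical order in the models. On hg19, HOXA lay on chromosome 7, with its last base at 27246878 and 11 coding and 4 noncoding names in 19 models. HOXB occupied chromosome 17 from 46606807 to 46806111, with 10 coding names in 10 models. HOXC occupied chromosome 12 from 54329112 to 54449814, with 9 coding and 2 noncoding names in 18 models. HOXD occupied chromosome 2 from 176957532 to 177055635, with 9 coding names in 11 models. All coding genes of a cluster lay on 1 strand, minus in HOXA and HOXB and plus in HOXC and HOXD, and all 6 noncoding members lay on the strand opposite to the coding genes. In the direction of transcription the numbers fell without exception, beginning at 13 in each cluster.

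The outermost genes given here were HOXA13 (27236499 to 27239725), HOXB13 (46802127 to 46806111) and HOXB1 (46606807 to 46608272), HOXC13 (54332576 to 54340328) and HOXC4 (54410636 to 54449814), and HOXD13 (176957532 to 176960666) and HOXD1 (177053307 to 177055635). HOXA13 and HOXD13 are known for roles in the limb end and genital tract, and HOXB1 for hindbrain patterning. From the first to the last base of their coding genes the clusters measured 199305 bases in HOXB, 117239 in HOXC and 98104 in HOXD. HOXB held 1 gap of 98291 bases, between HOXB9 and HOXB13, in which HOXA has HOXA10 and HOXA11. Of the 35 pairs of neighbours, 2 overlapped (HOXC6 with HOXC5 and HOXC5 with HOXC4), the median distance was 5760 bases, and the shortest positive one, 895 bases, separated HOXA10 and HOXA11. Paralogue groups 4, 9 and 13 were present in all 4 clusters. Groups 2, 7 and 12 had 2 members each, and the other 7 groups had 3.

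**Figure D1:**
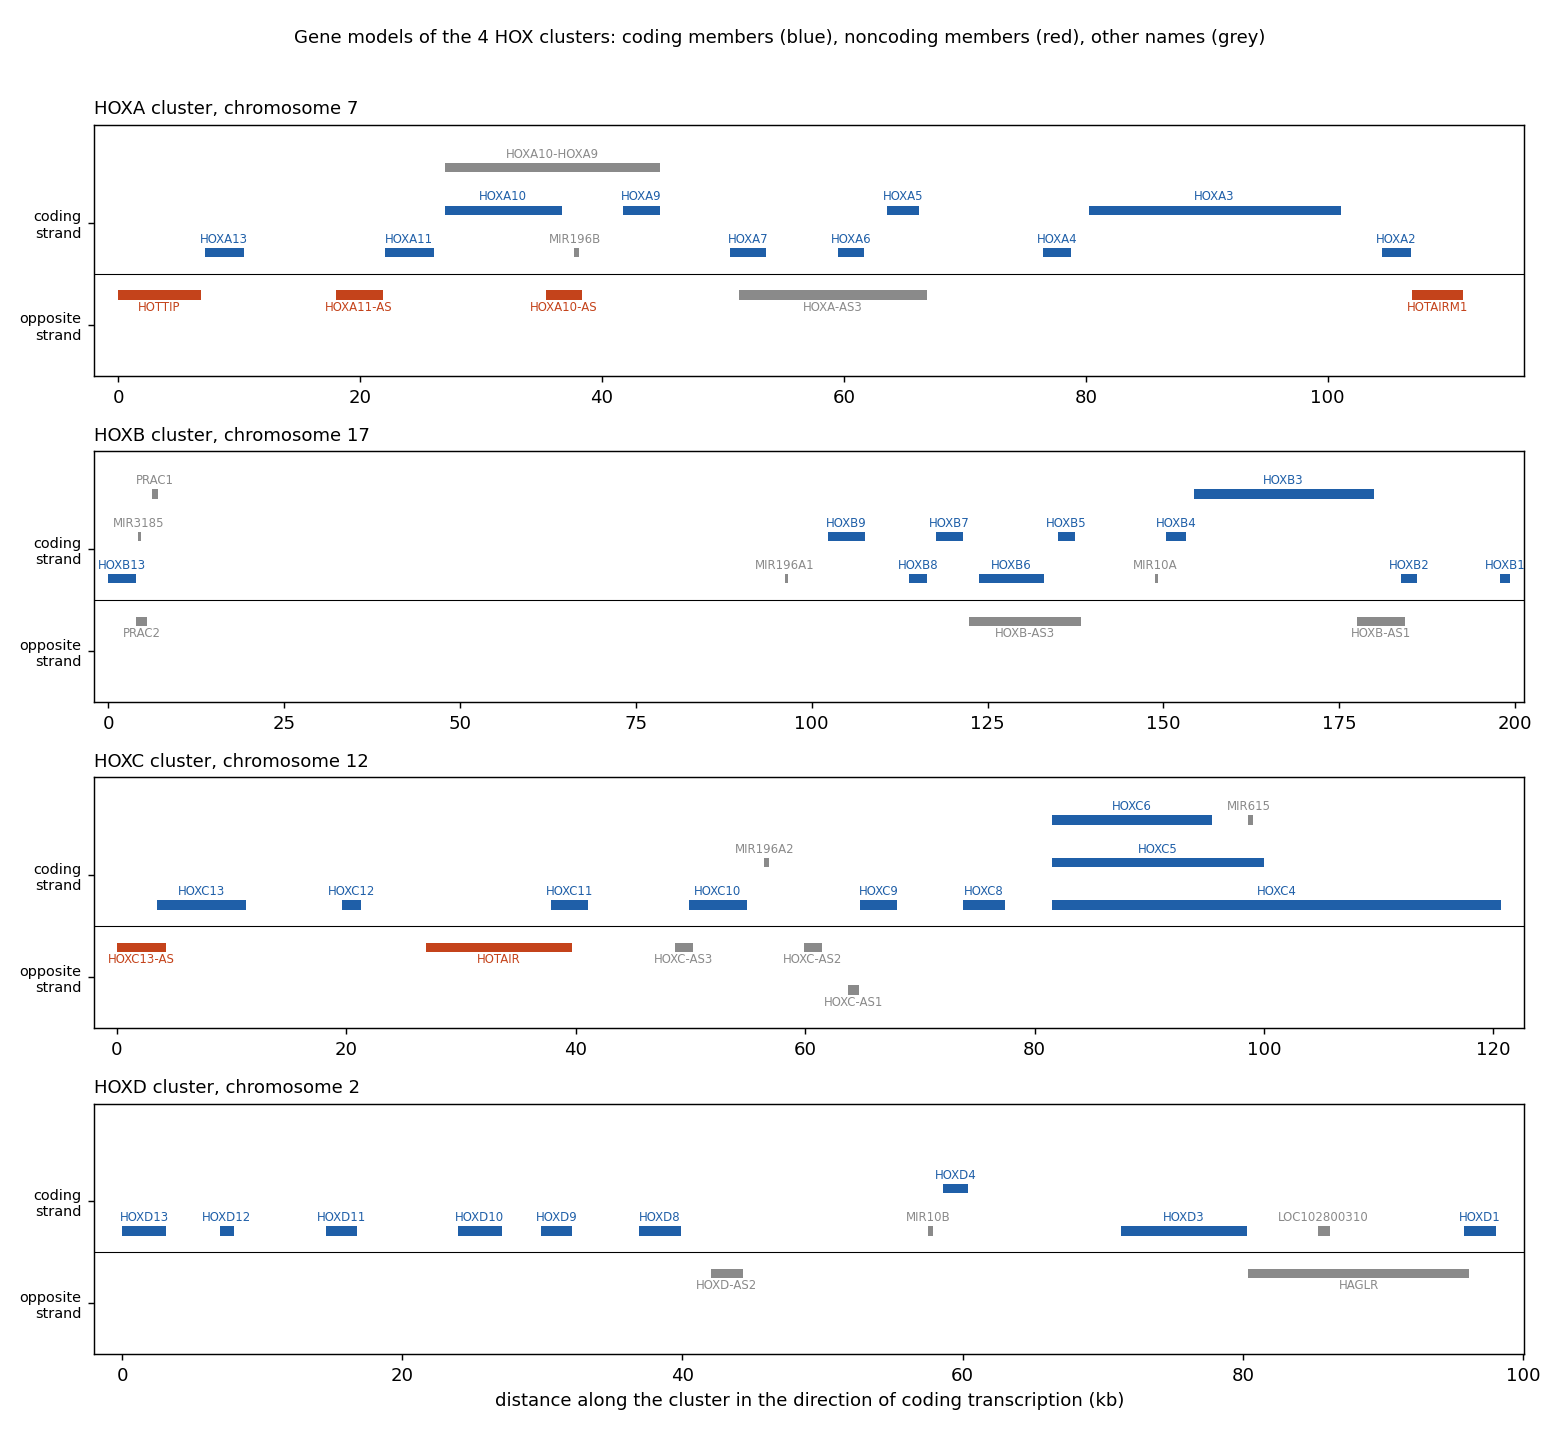
Position of gene names inside the 4 clusters, with distance in kb along the horizontal axis in the direction of coding transcription and a bar from the first to the last base of all models of a name. Blue bars (coding members) lie on 1 strand in each cluster and red bars (noncoding members) on the other, and the 98291-base gap of HOXB appears as the wide interval between HOXB13 and HOXB9.

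Coding HOX genes were short and had few exons. Of the 45 models with a protein-coding RefSeq accession, 36 (80.0%) had 2 exons, against 4.68% of all 37542 coding models in the file, whose median was 8 exons. The number of exons in HOX models ranged from 2 to 4. Their median span on the chromosome was 3012 bases against 27124 bases, and their spliced length was closer to that of other genes, with a median of 1975 bases against 2741. The last exon, which holds the homeobox, made up 63.9% of the spliced bases of these models pooled, against 52.2% in all coding models pooled. By length the extremes were HOXA6, with 802 spliced bases, and HOXB3, with 3618. HOXD12 had the shortest span (959 bases) and the shortest intron (146 bases).

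Long spans belonged to a few names. Counting all models of a name, HOXC4 spanned 39179 bases, HOXB3 25579, HOXA3 20831, HOXC5 18509 and HOXC6 13972. HOXA10 spanned 9671 bases, HOXB6 9236 and HOXD3 9022. Group 3 and the low-numbered end of HOXC thus held the 5 longest names, while HOXC4 and HOXB3 alone exceeded 22520 bases, the median over all coding names taken from the longest spliced model of each. A single model was listed for 32 of the 39 coding names, and several for 7, among them HOXA3, HOXA10, HOXC4, HOXC5, HOXC6 and HOXD8. GENCODE release 44 lists 110 transcripts under the 39 coding names, where the file had 47 models. HOXB3 had 13 in GENCODE and 1 in the file. The intron chain of 53 of the 56 reference models was also present in GENCODE, the exceptions being 1 model each of HOXA3, HOTTIP and HOTAIR.

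**Figure D2:**
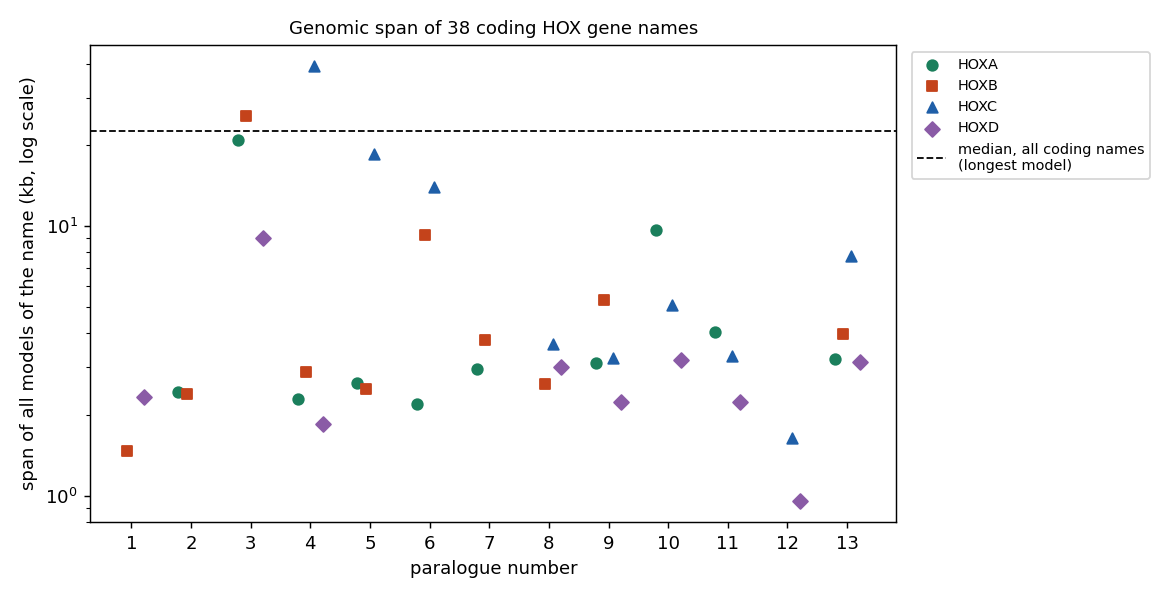
Span in kb of all models of 38 coding HOX names (log axis) by paralogue number, 1 point per gene, coloured by cluster; the dashed line is the median of the longest model of every coding name in the file, 22520 bases. Most points lie near the HOX median of about 3 kb, and HOXC4 and HOXB3 lie above the line.

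The homeobox, 180 bases encoding 60 residues, was found in 39 of 39 coding names and lay whole in the last exon in all 39. It was located through residues 48 to 53, which read tryptophan, phenylalanine, glutamine, asparagine, arginine, arginine, in the longest reading frame on the hg19 sequence; for HOXB4 the frame used was the longest one holding these residues. Frames ran from 217 residues in HOXB7 to 443 in HOXA3, and 38 of 39 equalled the length of a GENCODE coding sequence on the same intron chain, the exception being the 4-exon chain of HOXA3. The last splice junction preceded the homeobox by 8 to 113 bases, with a median of 29. All genes of a group had the same distance in 6 of the 13 groups: it was 26 bases in all 4 genes of group 4, 35 in all 4 of group 9, 20 in all 3 of group 6 and 8 in both of group 7, and the genes of groups 2 and 12 also shared theirs. In group 5 it ran from 8 to 20 bases. HOXB3, with 113 bases, was far from HOXA3 (44) and HOXD3 (38).

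A hexapeptide core, searched as tyrosine or phenylalanine, any residue, tryptophan, methionine, was present before the homeodomain in all 23 genes of groups 1 to 8 and in none of the 16 genes of groups 9 to 13. In all 23 it was encoded by the exon before the homeobox exon, so the last intron separated the 2 motifs in each. The stretch between them was 44 residues in both genes of group 2, 29 to 54 in group 3, 16 in all of group 4, 14 in all of group 6, 6 in both genes of group 7 and 6 to 7 in group 8. Group 1, with 19 to 20 residues, and group 5, with 10 to 14, varied within the group. Group 5 shortened from HOXA5 (14) to HOXB5 (13) and HOXC5 (10), genes known for roles in neck, shoulder and lung development. The pattern searched is narrow, and tryptophan motifs of another form in groups 9 to 13 were not searched.

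**Figure D3:**
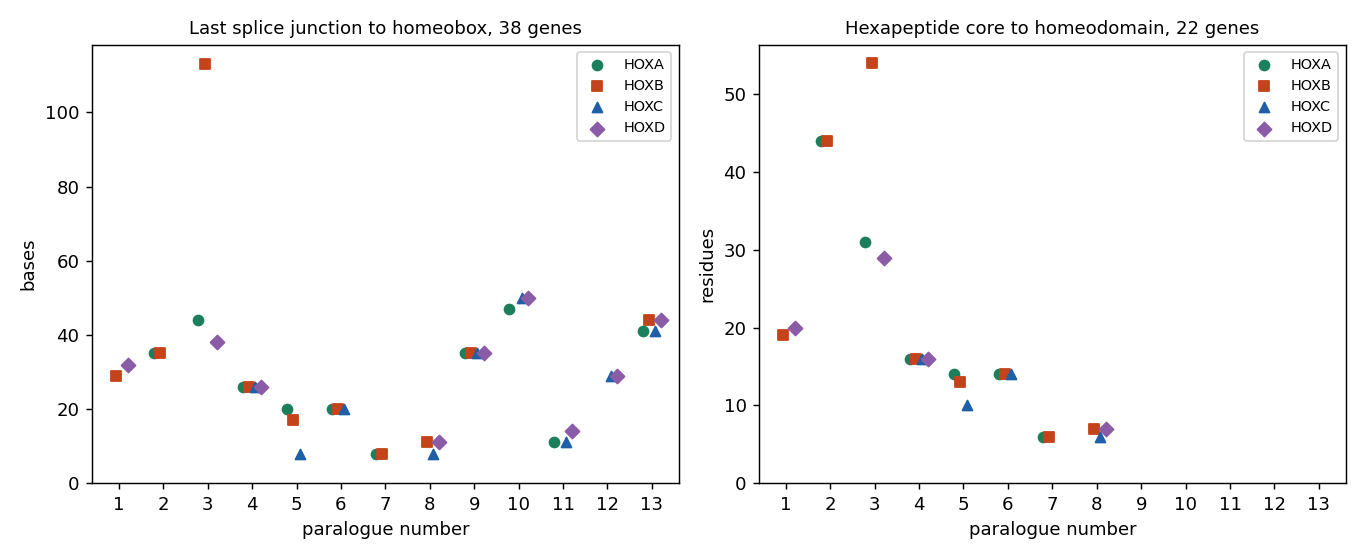
Left, bases from the last splice junction to the homeobox in 38 genes; right, residues from the hexapeptide core to the homeodomain in the 22 of them that hold it, both by paralogue number and coloured by cluster. Paralogues share 1 value in groups 2, 4, 6 and 7 in both panels and differ in others, such as group 5; HOXB3 stands apart at 113 bases and 54 residues, and no point is drawn at numbers 9 to 13 on the right.

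Homeobox sequence followed paralogue number more than cluster. Across 42 pairs of paralogues the median base identity was 81.7%, against 61.4% in 172 pairs of the same cluster with different numbers and 60.0% in 527 pairs that shared neither. The same order held for residues, with medians of 93.3%, 61.7% and 60.0%. Pairs share genes, and the medians are a description without a test. Group 3 was the most alike (89.4 to 90.6% of bases), group 9 lay between 81.7 and 84.4%, and groups 12 (70.6%) and 13 (69.4 to 80.0%) were the least alike. Over all 39 genes, 41 of the 180 bases and 17 of the 60 residues were identical. The search required residues 48 to 53, so these residues, which hold 11 of the 41 bases, were identical by design.

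Close paralogues could share every residue and still differ in their bases. The homeodomains of HOXA5 and HOXB5 were identical in all 60 residues, yet the homeoboxes differed at 32 bases (82.2% identity), 27 of them at codon position 3, 5 at position 1 and 0 at position 2. The homeobox of HOXA5 lies at chr7:27181505-27181684 and that of HOXB5 at chr17:46669622-46669801, both on the minus strand.

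For genes in the middle of a cluster, the closest homeobox could belong to another group in bases, though not in residues. For 32 of 39 genes the closest homeobox by bases belonged to the same group, and the 7 exceptions were HOXB5, HOXC5, HOXA6, HOXB6, HOXA7, HOXB7 and HOXB8. HOXA6 and HOXA7, which lie 5944 bases apart, were the closest pair of all 741, with 91.1% of bases identical, and HOXB6 and HOXB7 followed the same pattern at 88.9%. HOXC5 was closest to HOXC6 (77.8%) and HOXB8 to HOXB6 (80.6%). HOXB5 was closer in bases to HOXA6 (85.6%) than to HOXA5 (82.2%), although its residues equal those of HOXA5. By residues, each of the 7 was closest to a paralogue: HOXA6 differed from HOXB6 at 3 residues and HOXA7 from HOXB7 at 3, against 4 between HOXA6 and HOXA7. HOXB8 differed from HOXC8 at 1 residue and from HOXB6 at 11, and HOXC5 differed from HOXA5 and from HOXB5 at 6 each and from HOXC6 at 9. HOXA6 and HOXA7 differed at 16 bases, 11 of them at codon position 3, and at 4 residues, so they are closer than HOXA5 and HOXB5 in DNA and farther apart in protein. Their homeoboxes lie at chr7:27185337-27185516 and chr7:27194654-27194833 on the minus strand.

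**Figure D4:**
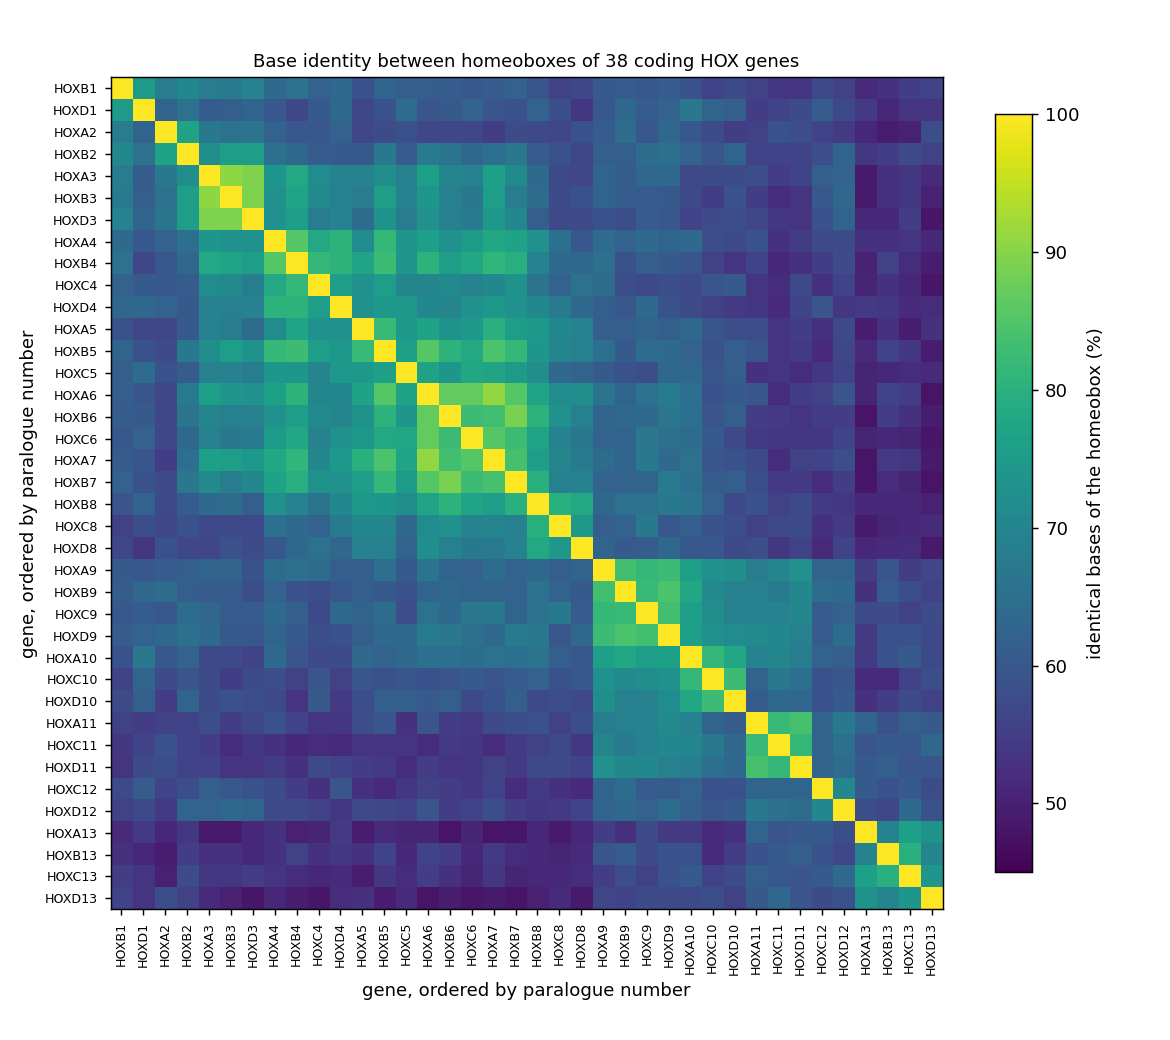
Identical bases (colour, %) between the homeoboxes of each pair of 38 coding genes, both axes ordered by paralogue number. Bright blocks on the diagonal are paralogue groups, the block from groups 3 to 7 spreads beyond single groups, and group 13 is dark against groups 1 to 8, down to 47.8%.

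HOXC6, HOXC5 and HOXC4 were joined at their 5′ ends. These genes are known for roles in the neck and thoracic region. Their 6 models formed 1 locus, and 3 of them, 1 of each name, began at the same base, 54410636, with the same first exon of 563 bases (54410636 to 54411198). This exon was spliced over 11161 bases to HOXC6, over 16863 to HOXC5 and over 35745 to HOXC4. Each gene also had a model with a start of its own, 11558 bases downstream for HOXC6, 16196 for HOXC5 and 37025 for HOXC4. Of the 50 start groups of the set, it was the only one with more than 1 member name. Counting any gene name, 2 of the 50 had more than 1, since a HOXA10 model shares its start with the read-through name HOXA10-HOXA9, against 1.36% of 31740 start groups in the file counted the same way. The HOXC group was 1 of 17 in the file with at least 3 names.

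The shared start changed the reading frame of HOXC6 and HOXC5 but not of HOXC4. HOXC4 had a frame of 264 residues from either start. The frame of HOXC6 was 235 residues from its own start and 153 from the shared one, with the homeobox in both. HOXC5 had 222 residues from its own start, while its model from the shared start has a noncoding accession, joins the 563-base exon straight to the homeobox exon, and has a longest frame of 103 residues without the homeobox core. The junctions are shown because they are what tells the 3 transcripts apart: 9 exon and 20 intron bases of the shared donor, and 20 intron and 9 exon bases of each acceptor, with the intron's end bases in capitals. They lie on the plus strand at chr12:54411190-54411218, chr12:54422340-54422368, chr12:54428042-54428070 and chr12:54446924-54446952.
Shared donor: cagcgctcgGTaagtgtttccttattggt
HOXC6 acceptor: gccacctcgccgggggccAGgacgtcctc
HOXC5 acceptor: gggtggggtttatgttccAGagacggacg
HOXC4 acceptor: cacttcctgtctctcttcAGcgggggctc

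The other locus with more than 1 member name was that of HOXA10 and HOXA9, factors studied in uterus and blood formation, together with the read-through name HOXA10-HOXA9, which the naming rule does not include. Such loci made up 2 of the 42 of the set, against 2.37% of 26008 in the file. Both held 3 names, and 185 loci of the file held at least 3. HOXA10 had a model starting at 27213955 with a frame of 410 residues. Its other model has a noncoding accession and began 5925 bases upstream, at 27219880, the start of HOXA10-HOXA9. That model kept the homeobox exon, with a longest frame of 94 residues that holds the homeobox core. A value summed per locus in this assembly would add HOXA9 to HOXA10, and HOXC4 to HOXC5 and HOXC6.

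HOXA3 and HOXD8 differed between their own models. HOXA3 had starts 7425 bases apart with the same frame of 443 residues. HOXD8 had models of 290, 289 and 106 residues. Models of 290 and 289 residues used acceptors 3 bases apart, just before the homeobox, and the shortest model began 46 bases upstream of them. The acceptor is shown because both AG pairs, in capitals, stand in a row at chr2:176996027-176996056 (plus strand).
HOXD8: tttttttgttttaatcAGcAGctcctggta

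Of the 6 noncoding members, 5 had reference models alone. HOTTIP (27240040 to 27246878) had 3 exons and 4665 spliced bases, the longest transcript of the set. HOTAIRM1 (27135713 to 27139877) had models of 1044 and 775 bases with 1 start, the shorter lacking the middle exon of 269 bases. HOXA10-AS (27208518 to 27211534) had 3 exons and 1161 bases, HOXA11-AS (27225027 to 27228912) 2 exons and 1549 bases, and HOXC13-AS (54329112 to 54333427) 3 exons and 1408 bases. The median over all 11 noncoding models was 3 exons and 2238 bases, against 3 exons and 1401 bases in 9695 noncoding reference models. HOTAIR gave 5 of the 11, 2 of them not reference models, and the median length is that of 1 of these 2. The comparison therefore weighs HOTAIR most and does not describe the 6 names singly.

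HOXA11-AS and HOTTIP faced a coding gene head to head without overlap. The start of HOXA11-AS lay 192 bases from that of HOXA11, and the start of HOTTIP 315 bases from that of HOXA13. HOTAIRM1 ended 95 bases from HOXA2, with no shared base. The intervals are shown, CG dinucleotides in capitals, because a transcript starts at either end of each: all 191 bases at chr7:27224836-27225026, and the 300 next to HOTTIP at chr7:27239740-27240039, written on the plus strand. They differ in composition, with 46 CG dinucleotides and 79.0% G and C before HOTTIP and 7 and 50.8% before HOXA11-AS.
HOXA11 to HOXA11-AS: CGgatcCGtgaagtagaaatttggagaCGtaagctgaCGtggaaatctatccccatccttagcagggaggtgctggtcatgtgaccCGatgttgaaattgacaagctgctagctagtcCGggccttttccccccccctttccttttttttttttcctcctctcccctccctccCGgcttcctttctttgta
HOXA13 to HOTTIP: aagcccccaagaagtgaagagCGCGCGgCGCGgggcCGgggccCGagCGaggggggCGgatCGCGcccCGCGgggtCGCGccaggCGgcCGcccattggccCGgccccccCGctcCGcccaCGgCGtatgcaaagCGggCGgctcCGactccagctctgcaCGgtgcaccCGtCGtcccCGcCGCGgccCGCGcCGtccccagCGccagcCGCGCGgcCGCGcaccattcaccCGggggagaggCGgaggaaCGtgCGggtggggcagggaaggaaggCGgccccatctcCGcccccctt

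HOXA10-AS and HOXC13-AS overlapped exons of the coding gene they are named after. HOXA10-AS shared 608 exon bases with HOXA10, which is 52.4% of the antisense model and 23.6% and 27.6% of the 2 HOXA10 models. HOXC13-AS shared 172 bases with HOXC13, or 12.2% of the antisense model and 7.18% of HOXC13. HOTAIR ran under HOXC11 for 1831 bases without sharing an exon base. No homeobox was covered by an exon of a noncoding member. Without strand, reads that lie wholly within these 608 and 172 bases cannot be told apart between a gene and its antisense partner.

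Names outside the naming rule added opposite-strand overlaps. HOXA-AS3 shared 1504 exon bases with HOXA7, among them all 180 of its homeobox, and 105 with HOXA6. HOXB-AS1 shared 279 bases with HOXB3 and covered 45 of its homeobox bases, and HOXB-AS3 shared 166 with HOXB6 and 73 with HOXB5, all 73 inside the HOXB5 homeobox. HAGLR, whose 13 models made it the name with the most models inside the clusters, shared 145 bases with HOXD1, and HOXC-AS3 shared 44 with HOXC10.

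HOTAIR was the 1 HOX name with joined models, the term used here for models with 1 particular class tag of the file. In both joined HOTAIR models each intron is annotated but the chain as a whole is absent from RefSeq. Counts over the whole file rest on the class tag alone. Joined models were thus present at 1 of 45 names with a multi-exon reference transcript (2.22%), against 12.4% of 21516 names in the file. Names that share a locus are not independent, and the difference from the file was not tested. All 2820 loci of the file with a joined model had at least 2 reference transcripts, as did 7 of the 42 HOX loci. Whether this accounts for the lower share by name was not tested. Among loci with at least 2 reference transcripts, 1 of 7 in the set had a joined model (14.3%), against 28.8% of 9798. With at least 3 it was 1 of 4 (25.0%) against 46.5% of 5516. Each of these shares was below that of the file, on 1 locus.

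The HOTAIR locus ran from 54356092 to 54368740 on the minus strand, from 5741 bases beyond HOXC12 into the HOXC11 span, and had 5 models with 3 starts and a common last exon of 1817 bases. The far start at 54368740 lies inside the HOXC11 span, and the near starts at 54362698 and 54362540 lie 6042 and 6200 bases downstream of it. From the far start, the reference model had 6 exons and 2368 bases. The reference models from the near starts had 4 exons and 2337 bases, and 6 exons and 2362 bases. Both joined models began at the far start with its 59-base first exon and crossed the 6141-base intron to the 140-base exon.

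Beyond that exon, the joined models held features that the reference models have only from the near starts. The 7-exon model (2421 bases) had every exon of the far-start reference and, in addition, the 53-base exon that is otherwise found in the 6-exon near-start reference alone. The 5-exon model (2238 bases) skipped the 126-base exon and used the 120-base form of the next one, as the 4-exon near-start reference does. Each joined chain was made of 2 runs of reference introns, with ends that are annotated. The 7-exon chain is present in GENCODE and the 5-exon chain is not, and the 6-exon near-start reference is the HOTAIR chain that GENCODE lacks. No frame exceeded 106 residues in any HOTAIR model.

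The sequences at which the HOTAIR models part are shown on the minus strand, with intron end bases in capitals: the far donor (chr12:54368662-54368690), the acceptor of the 140-base exon (chr12:54362532-54362560), the alternative acceptors 4 bases apart that give the 124- and 120-base exons (chr12:54359858-54359886), and the acceptor of the 53-base exon (chr12:54358059-54358087). In the alternative acceptor the first AG yields the 124-base exon and the next AG the 120-base exon.
Far donor: gccctccagGTacacgtgcgtcccctcgg
140-base exon acceptor: ttgtttgggatctgttccAGcctccaggc
Alternative acceptors: tcacccccggtaaAGgaAGgaggggcgtc
53-base exon acceptor: atcaatatctctccgttaAGtatgcacat

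**Figure D5:**
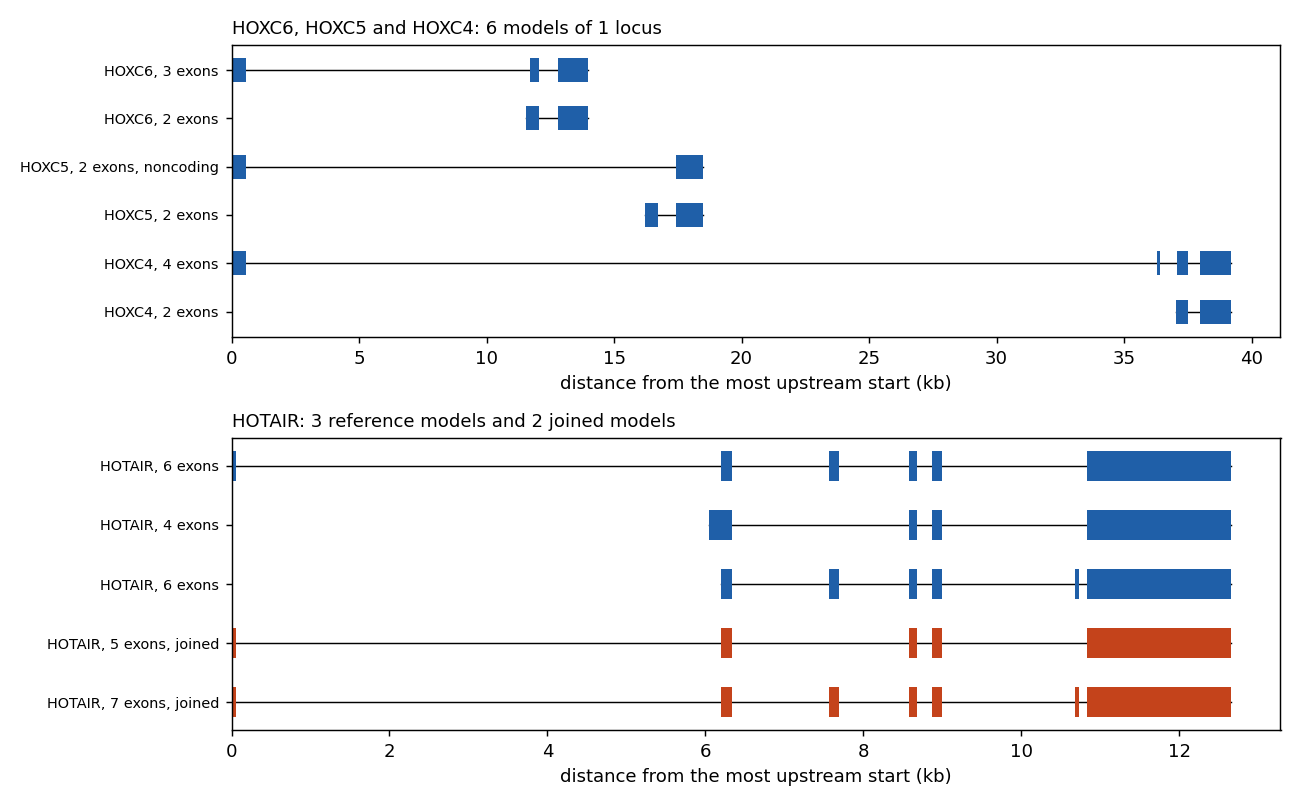
Exons (boxes) and introns (lines) of the 6 models of HOXC6, HOXC5 and HOXC4 (top) and of the 5 HOTAIR models (bottom; joined models in red), by distance in kb from the most upstream start. In the upper panel 3 models share the 563-base first exon; in the lower panel both joined models begin at the far start, and the 7-exon one includes the 53-base exon beside the last exon.

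The 250 bases before each start were searched for simple motifs on either strand. The set had 51 distinct starts, 43 of coding and 8 of noncoding names, set against 30971 starts in the file. CCAAT, the box bound by the factor NF-Y, was in 31 of 43 coding HOX windows (72.1%) and 2 of 8 noncoding ones (25.0%), against 31.7% of all windows. TGATNNAT, the form of a combined PBX and HOX site, was in 12 of 43 coding windows (27.9%) and 0 of 8 noncoding ones, against 5.68%. By cluster, the latter was in 5 of 13 HOXA windows and 5 of 10 HOXB windows, and in 1 of 10 in each of HOXC and HOXD. TATAAA was in 7 of 43 coding windows (16.3%), against 9.75%. CpG-rich windows, with over 50% G and C and a ratio of observed to expected CG above 0.6, made up 30 of the 51 (58.8%), against 47.6%. Windows of neighbouring starts can overlap, and a match of letters is no measure of binding.

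The clusters also hold genes for the microRNAs miR-10, miR-196 and miR-615, families known to target HOX messages. MIR196B lies within HOXA10-AS on the opposite strand and shares 84 bases with its exons. Mature sequences (RefSeq) are given with the seed, bases 2 to 8, in capitals; both miR-196 forms have the same seed.
hsa-miR-196a-5p: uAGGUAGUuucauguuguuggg
hsa-miR-196b-5p: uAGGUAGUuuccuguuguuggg
hsa-miR-10a-5p: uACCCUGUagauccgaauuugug
hsa-miR-615-3p: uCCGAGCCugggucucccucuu

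Matches to the miR-196 seed (ACTACCT) after the stop codon occurred in 7 of 39 coding HOX names (17.9%), against 5.70% of 19114 coding names. The 7 were HOXA5, HOXA7, HOXA9, HOXB6, HOXB7, HOXB13 and HOXC8, with 13 matches in all, 4 of them in HOXA7 and 3 in HOXC8. Per kilobase after the stop this is 0.365 against 0.0448, while the median length of that stretch was alike (856 and 837 bases). The miR-10 seed match was in 3 names, HOXA3 and HOXB3 among them (7.69% against 9.76%), and that of miR-615-3p in HOXB4 and HOXC6 (5.13% against 2.18%). A window of HOXB8 paired with miR-196a over all 22 bases, 21 of them Watson-Crick and 1 a G-U wobble at base 5 of the microRNA, which is why the seed search misses it. Only 2 of 18367 coding names (0.0109%) had a window of 22 pairs, HOXB8 and AKTIP, which needs 5 wobbles. The HOXB8 window lies 411 bases after the stop, at chr17:46690132-46690153 on the minus strand, with the seed-facing bases in capitals.
HOXB8: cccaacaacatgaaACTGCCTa

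Genes that act with or upstream of HOX proteins were listed beside the set, together with ParaHox genes and neighbours of the clusters. Of all 21516 multi-exon names, 12.4% had a joined model. Joined models were present at 2 of 9 cofactor genes (22.2%), PBX3 with 1 and MEIS2 with 4, which encode homeodomain partners of HOX proteins. They were present at 4 of 15 chromatin regulators (26.7%): EZH2, the Polycomb methyltransferase, with 3, MEN1, menin, with 5, and ASH2L and RBBP5, subunits of the opposing methyltransferase complexes, with 1 each. These 4 genes had 3 to 7 reference models, PBX3 had 4 and MEIS2 had 9. Among loci with at least 2 the share in the file was 28.8%. The lists are small, and no difference from the file was tested. In the ParaHox and CDX list it was 0 of 6. All 6 had 1 reference model, and every locus of the file with a joined model had at least 2. This 0 therefore cannot be read against the 12.4%. The ParaHox and CDX list holds PDX1, the pancreatic and beta cell regulator, whose single model has 2 exons like most HOX genes, as do those of GSX1 and GSX2. Of the 6 multi-exon neighbours of the clusters (EVX1, EVX2, SKAP1, SKAP2, PRAC1 and PRAC2), 0 had a joined model. Only SKAP1 and PRAC2, with 2 each, had more than 1 reference model.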

How the data were processed

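The deposited file was 1 merged transcript assembly for the series, with no tag that ties a model to a library. Its source and tags are those of Cufflinks and its merging tools, per the tags in the deposited file, and the submitters' processing notes name TopHat2, Cufflinks and hg19. Tool versions and settings were not given in these sources. The authors' values are exon positions in bases on 555595 lines, 0 of them with a score. Depth is therefore unknown, and the planned expression tests were replaced by a description of the models.

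Models were rebuilt in Python 3.11.15 with numpy 2.4.6 and scipy 1.17.1, and scripts were tested on simulated data. Exon and intron sequences were read from GRCh37, where all introns of the set have GT and AG ends, and chains were compared with GENCODE release 44 on that build. A start group is the file's own start tag; an antisense overlap is at least 1 shared exon base. Values are given for names with a joined model, with a shared locus, start or antisense exon, for noncoding names and for the outermost genes, and the rest by range. The values of 1 coding member and some sequences are not reported here; that member stays in counts and medians over the set and is not drawn in the figures. The members and lists were chosen with earlier results of these data known, and the promoter motifs, the hexapeptide and the search for full microRNA pairing were added after seeing the data.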

Additional observations from a re-analysis of the deposited data

How the results depend on the processing

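Of 12 alternatives, 10 kept the main value within 1.5 times. Counting all gene names inside the cluster spans, in place of the naming rule, raised the number of models from 58 to 98. The same change, chosen after seeing the data, raised the antisense overlaps from 2 to 11. Counting spans in place of exons gave 3. Names with a joined model (1), start groups with several models (5), loci with more than 1 name (2) and the median of 2 exons did not move under their alternatives. No paired analysis was possible because the assembly holds no value for any single library, and the expression alternatives were not run. Depth is unknown and limits every statement on expression.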
